A study of Mus musculus with 12 samples.

Results

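Blood and lymphatic endothelial genes were read in mouse colon by total RNA-Seq. The set holds 9 genes chosen by symbol, Pecam1, Cdh5, Kdr, Flt1, Tek, Plvap, Aplnr, Lyve1 and Prox1. Each symbol matched exactly 1 of the 32689 genes in the authors' normalized colon table, and all 9 passed the filter on low counts. The rule used symbols and no measured values, though the 9 genes were chosen with earlier results of these data known.

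Endothelial cells line blood and lymphatic vessels. Their growth and survival are driven by vascular endothelial growth factors (VEGFs), which bind the receptor tyrosine kinases VEGFR1 (Flt1), VEGFR2 (Kdr) and VEGFR3 (Flt4), and by angiopoietins, which bind Tie2 (Tek). In the gut, fenestrated capillaries lie beneath the epithelium, and during inflammation venules display adhesion molecules that let leukocytes leave the blood, while lymphatic vessels drain fluid and cells.

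The colon libraries came from 6 male C57BL/6 mice aged 8 weeks. Mice 1, 2 and 4 are labelled ulcerative colitis (UC) and received 1.5% dextran sulfate sodium (DSS), a polysaccharide that injures the colon lining, in the drinking water for 7 days. Mice 7, 8 and 9 are labelled control, a group that received water without DSS, and all mice were killed on day 8. The treatment of each mouse is known only through its label. DSS colitis is a chemical injury model, and the study picked the sequenced mice by their disease activity score. A whole blood library was made from each mouse as well. The labels count each mouse as a separate sample, so n is 3 mice in each group.

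Total counts ran from 69181049 to 103662306 in the colon libraries, and the 3 libraries labelled UC were the deepest. A pair of label fields give opposite tissues for every sample. The tissue characteristic was used, and all 7 colon epithelial genes examined were higher in every library it calls colon than in every library it calls blood. The disease labels stood against the inflammatory genes. All 8 of the inflammatory genes examined (S100a8, S100a9, Lcn2, Il1b, Il6, Tnf, Saa3 and Cxcl2) had their 3 highest values in mice 1, 7 and 9, an order shared by 18.2% of all genes tested. S100a8, a neutrophil protein, had 5370, 33.1 and 22.3 normalized counts under the UC label (mice 1, 2 and 4) against 1888, 75.6 and 13337 under the control label (mice 7, 8 and 9). The authors' normalized tables list their columns in the order of mice 1, 7, 9, 2, 4 and 8, which places these 3 mice first. Whether disease labels were exchanged between mice was not tested, and every log2FC and every count of SDE genes holds for the labels as given. For this reason the groups are called the libraries labelled UC and labelled control throughout, and each value is given by mouse. Normalized counts are gene counts that the authors divided by one factor per library.

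Endothelial RNA was present in every colon library. To compare levels between genes, normalized counts were divided by the combined length of all annotated exons of each gene. Lyve1, a hyaluronan receptor of lymphatic endothelium, had the highest level, 1064 ± 200 normalized counts per kb (SD, n = 6). Plvap, the protein of the diaphragms in fenestrated capillaries, followed with 869 ± 436 per kb. Their ranges overlapped, and Lyve1 was above Plvap in 4 of the 6 libraries. Pecam1 (444 ± 127 per kb) and Cdh5 (288 ± 145 per kb), the latter being VE-cadherin of endothelial junctions, came next. Tek was at 190 ± 32.8 per kb, and the VEGF receptors Kdr and Flt1 were at 124 ± 31.3 and 88.3 ± 41.8 per kb. Kdr was above Flt1 in 6 of 6 libraries per kb, by 1.07-fold to 1.99-fold. That order rests on the lengths used, 9.03 kb for Kdr and 13.5 kb for Flt1, since Flt1 had more counts in mice 7 and 9. Prox1, the transcription factor that sets lymphatic identity, had 65.0 ± 22.4 per kb. Aplnr, the receptor for apelin, had the lowest level at 44.1 ± 13.3 per kb. The ranges of all neighbours in this order overlapped. Within single libraries the order held in 6 of 6 for Plvap over Pecam1, Pecam1 over Cdh5, Tek over Kdr, Kdr over Flt1 and Prox1 over Aplnr, and in 5 of 6 for Cdh5 over Tek and Flt1 over Prox1.

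**Figure D1:**
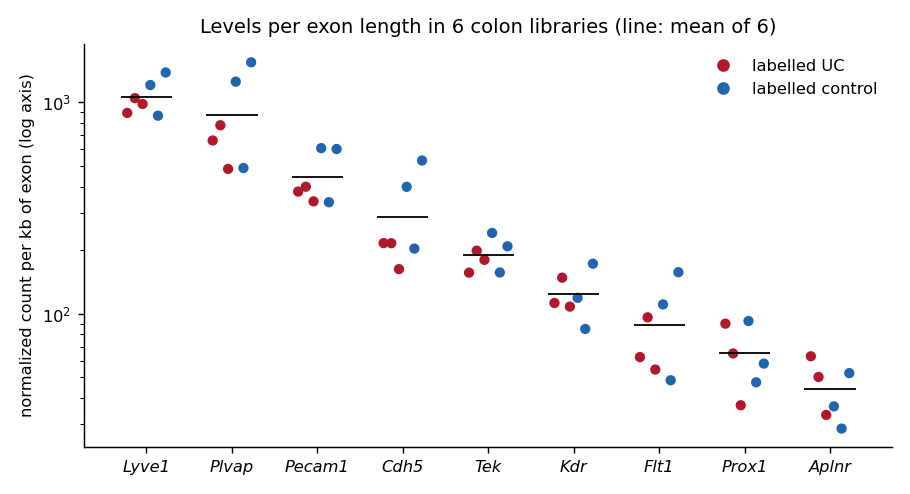
Normalized counts per kb of exon (log axis) of the 9 endothelial genes, with 1 point per colon library coloured by label and a line at the mean of 6 libraries. The genes are ordered by mean, from Lyve1 at 1064 to Aplnr at 44.1 per kb, and neighbouring genes overlap in range.

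Whether the endothelial genes differed with the disease label was asked with edgeR's quasi-likelihood test over 22238 genes. Genes with an absolute log2FC over 1 and a Benjamini-Hochberg adjusted p no higher than 0.05 are called SDE, for significantly differentially expressed, where log2FC is the libraries labelled UC minus those labelled control. None of the 9 endothelial genes was SDE (0 also with DESeq2 and with limma-voom), against 0.00450% of all genes, which is 1 gene. The study itself reported far more SDE genes in colon at these thresholds, and listed Saa3 and Il6 among the most upregulated. With the labels as given, the log2FC was -2.65 for Saa3 and -2.39 for Il6. The cause of this difference from the study was not tested. The adjusted p was 0.9999 for each of the 9. At an unadjusted p under 0.05 stood 1 of the 9, Cdh5, against 1.41% of all genes in either direction and 0.737% in the direction of Cdh5. The log2FC was below 0 for 8 of the 9 genes, against 51.0% of all genes, and Kdr and Prox1 lost that sign when certain single mice were left out. The median log2FC of the 9 genes was -0.25, while that of all genes was -0.01. The labelled groups overlapped for all 9, whereas 5.66% of genes had groups that did not overlap. In bulk tissue, a difference in the number of endothelial cells and one in RNA per endothelial cell cannot be told apart.

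**Figure D2:**
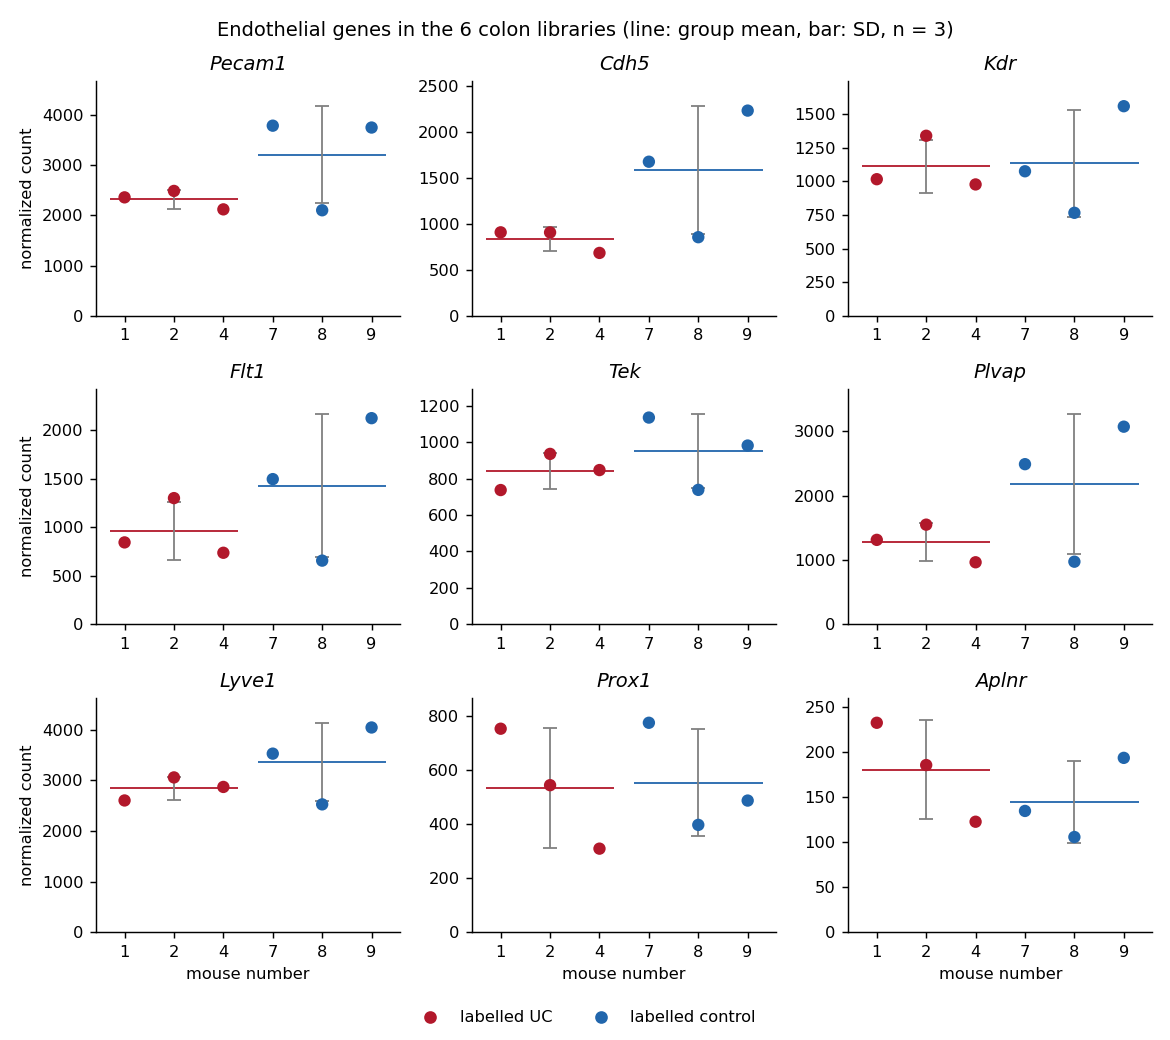
Normalized counts of the 9 endothelial genes by mouse number, red for the libraries labelled UC and blue for those labelled control, with a line at each group mean and a bar of 1 SD (n = 3). Mice 7 and 9 stand above mouse 8 for each gene, and the labelled groups overlap throughout.

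Pecam1 (CD31; chromosome 11, 106654217 to 106750628, minus strand, GRCm38) encodes an adhesion molecule of endothelial junctions that leukocytes and platelets also carry. It had 2358, 2486 and 2119 normalized counts in libraries 1, 2 and 4, labelled UC, and 3785, 2101 and 3748 in libraries 7, 8 and 9, labelled control. Mice 7 and 9 stood apart, and mouse 8 lay below all 3 libraries labelled UC. The log2FC was -0.48 (SE 0.25, 95% interval -1.08 to 0.12, edgeR adjusted p 0.9999).

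Cdh5 (chromosome 8, 104101625 to 104144511, plus strand) had the log2FC farthest from 0 of the 9. It had 908, 907 and 684 normalized counts under the UC label (mice 1, 2 and 4) against 1676, 855 and 2232 under the control label (mice 7, 8 and 9). The 3 libraries labelled UC lay close together (833 ± 129, SD, n = 3), while those labelled control spread widely (1587 ± 693, SD, n = 3) and mouse 8 fell inside the range of the UC label. The log2FC was -0.94 (SE 0.36, 95% interval -1.80 to -0.08), with an unadjusted p of 0.0365 and an adjusted p of 0.9999 in edgeR. It was -0.63 without mouse 9 and -1.23 without mouse 8.

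Flt1 and Kdr bind the same ligand, VEGF-A. Kdr carries most of the growth signal, while Flt1 binds the ligand tightly and signals weakly. Kdr (chromosome 5, 75932827 to 75978458, minus strand) had 1075, 766 and 1559 normalized counts in the libraries labelled control (mice 7, 8 and 9) and 1016, 1339 and 977 in the mice labelled UC (1, 2 and 4). The labelled groups had nearly the same mean, 1111 ± 199 and 1134 ± 400 (SD, n = 3), and the log2FC was -0.04 (SE 0.30, 95% interval -0.75 to 0.67, edgeR adjusted p 0.9999). That interval stays within a change of 2-fold in either direction. Flt1 (chromosome 5, 147561604 to 147726011, minus strand) had 843, 1300 and 736 normalized counts under the UC label (mice 1, 2 and 4) against 1496, 655 and 2125 under the control label (mice 7, 8 and 9). Its highest and lowest libraries, mice 9 and 8, carry the same label, and they differed 3.24-fold. The log2FC of Flt1 was -0.58 (SE 0.45, 95% interval -1.65 to 0.50, edgeR adjusted p 0.9999).

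Flt1 varied more among libraries than Kdr, which varied 2.03-fold, so the counts of the pair were set against each other within each library. The ratio of the normalized counts of Flt1 to those of Kdr was 0.83, 0.97 and 0.75 in mice 1, 2 and 4 and 1.39, 0.86 and 1.36 in mice 7, 8 and 9. Only in mice 7 and 9 were there more counts of Flt1 than of Kdr. The mean log2 ratio was lower by 0.47 in the libraries labelled UC (difference -0.47, exact two-sided permutation test, p 0.2), where 3 against 3 libraries cannot give a p below 0.1.

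The stretches of 250 bases before the starts of the paired receptor genes are shown as a description, without a test of their part in expression. They come from RefSeq on GRCm38.p6, which held 4 of the 9 genes (Kdr, Flt1, Tek and Prox1), and are written 5′ to 3′ on the minus strand, at chr5:75978456-75978705 for Kdr and chr5:147726012-147726261 for Flt1. Capitals mark GGAA or its reverse complement TTCC, the core that ETS transcription factors such as Erg bind, and TGACGTCA, the palindromic cyclic AMP response element.
Kdr: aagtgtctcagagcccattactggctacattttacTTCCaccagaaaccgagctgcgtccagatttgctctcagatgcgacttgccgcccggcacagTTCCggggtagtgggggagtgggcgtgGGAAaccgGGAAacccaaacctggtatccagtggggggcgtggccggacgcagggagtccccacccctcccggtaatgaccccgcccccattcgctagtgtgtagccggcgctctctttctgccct
Flt1: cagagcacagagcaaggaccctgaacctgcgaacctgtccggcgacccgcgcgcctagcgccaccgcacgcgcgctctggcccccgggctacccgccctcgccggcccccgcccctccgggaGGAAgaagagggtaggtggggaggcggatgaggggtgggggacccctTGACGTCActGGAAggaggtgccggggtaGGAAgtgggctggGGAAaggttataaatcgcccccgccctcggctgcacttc

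Both stretches held 4 copies of the GGAA core on either strand, and 33.4% of the 32851 promoter windows of the same length held at least as many. In Flt1 all 4 read GGAA on the printed strand, while Kdr had 2 in each orientation. TGACGTCA was present in Flt1 and not in Kdr, and 1.55% of all windows held it. It did not overlap a GGAA core. These letters describe the sequence, and binding was not measured.

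Tek (Tie2; chromosome 4, 94739289 to 94874976, plus strand) was the most even of the 9 genes. It had 738, 937 and 848 normalized counts in libraries 1, 2 and 4, labelled UC, and 1137, 739 and 983 in libraries 7, 8 and 9, labelled control, a range of 1.54-fold. The log2FC was -0.19 (SE 0.23, 95% interval -0.75 to 0.37, edgeR adjusted p 0.9999). For scale, the median range was 1.86-fold over the 15827 tested genes with a mean normalized count of at least 100, and 2.19-fold over the 9 genes.

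Plvap (chromosome 8, 71497765 to 71511752, minus strand) marks fenestrated capillaries. It had 1312, 1549 and 963 normalized counts in libraries 1, 2 and 4, labelled UC, and 2491, 972 and 3075 in libraries 7, 8 and 9, labelled control. Mice 7 and 9 were high and mice 4 and 8 low, a range of 3.19-fold that exceeded the range of 79.0% of those 15827 genes. The log2FC was -0.78 (SE 0.43, 95% interval -1.80 to 0.24, edgeR adjusted p 0.9999).

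Aplnr (chromosome 2, 85136225 to 85139923, plus strand) was the only gene of the 9 with a log2FC above 0. It had 135, 106 and 194 normalized counts in the libraries labelled control (mice 7, 8 and 9) and 233, 186 and 123 in the mice labelled UC (1, 2 and 4). Mouse 1 was highest, unlike for any other of the 9 genes. The log2FC was 0.31 (SE 0.39, 95% interval -0.62 to 1.23, edgeR adjusted p 0.9999), and it was 0.08 without mouse 1.

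Lyve1 (chromosome 7, 110850607 to 110863239, minus strand) is carried by lymphatic endothelium and by some tissue macrophages. It had 3527, 2526 and 4043 normalized counts in the libraries labelled control (mice 7, 8 and 9) and 2603, 3058 and 2870 in the mice labelled UC (1, 2 and 4). The libraries differed by no more than 1.60-fold, with mice 9 and 7 on top and mouse 8 lowest. The log2FC was -0.25 (SE 0.20, 95% interval -0.74 to 0.24, edgeR adjusted p 0.9999). The 7 resident macrophage genes (such as Cd163, Mrc1 and Timd4) were counted in every library. Their summed normalized counts ran from 9271 to 16310 in the libraries labelled UC and from 7704 to 21793 in those labelled control, highest in mice 9, 7 and 1. In the macrophage sum mouse 1 came after mice 9 and 7, while only mouse 8 lay below it in Lyve1. Of the 7 macrophage genes, 4 had their 3 highest values in mice 1, 7 and 9. Timd4 alone had them in mice 2, 7 and 9, as Lyve1 did. Its normalized counts were 103, 89.8 and 59.2 in mice 9, 7 and 2, and only mouse 8 (20.2) lay below mouse 1 (48.3). The part of macrophages in the Lyve1 counts was not tested.

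Prox1 (chromosome 1, 190118035 to 190170714, minus strand) followed another order. It had 754, 545 and 310 normalized counts under the UC label (mice 1, 2 and 4) against 776, 398 and 488 under the control label (mice 7, 8 and 9). Mice 7 and 1 were highest, with 1 library of each label, and mouse 4 was lowest. The log2FC was -0.06 (SE 0.42, 95% interval -1.06 to 0.94, edgeR adjusted p 0.9999). Besides lymphatic endothelium, hormone-secreting cells of the gut epithelium express Prox1. Chga, a granule protein of those cells, stood at 23444 normalized counts in mouse 1, at 15467 in mouse 7 and between 3237 and 5924 in the others. The hormone genes Pyy and Gcg were instead highest in mouse 9 (12834 and 9925), and mouse 7 had the lowest Pyy but for mouse 4 (6167 and 5110). Insm1, a transcription factor of these cells, had its 3 highest values in mice 1, 2 and 9. The 6 enteroendocrine genes summed to between 15940 and 70623 in the libraries labelled UC and between 17330 and 49873 in those labelled control, none at 0. The sums were highest in mice 1 and 7, and the part of these cells in the Prox1 counts was not tested. Prox1 shares 133 exon bases (1.59%) with the antisense gene Prox1os, and the quantification is not stated to use strand.

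**Figure D3:**
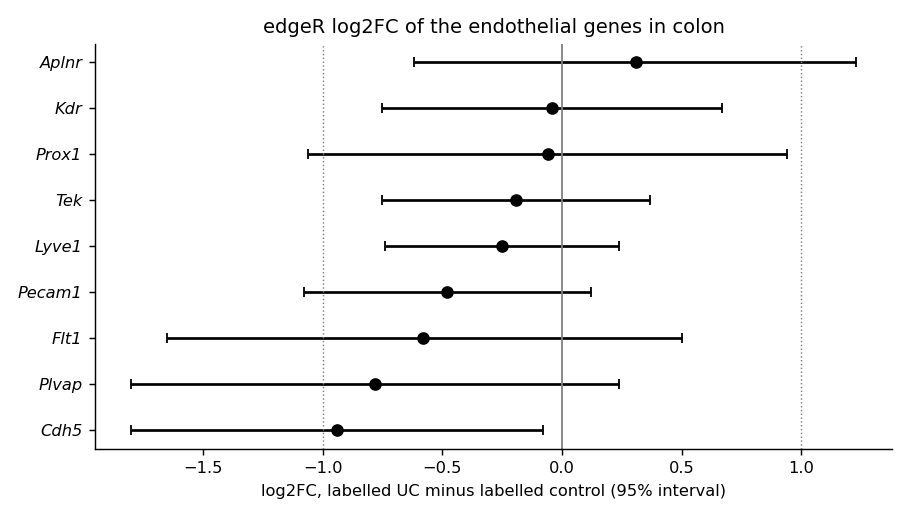
edgeR log2FC (labelled UC minus labelled control) of the 9 endothelial genes with 95% intervals; dotted lines mark a log2FC of -1 and 1. The interval includes 0 for all but Cdh5 (-0.94, -1.80 to -0.08).

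The order of the mice was shared by most of the 9 genes. For 6 of them (Pecam1, Kdr, Flt1, Tek, Plvap and Lyve1) the 3 highest values were in mice 2, 7 and 9, an order found in 4.67% of the 22182 tested genes of the normalized table. Cdh5 differed only in that mouse 1 stood narrowly above mouse 2 (908 and 907 normalized counts). Mouse 9 held the highest value of 5 of the 9 genes, against 22.6% of all genes. Among 21 other pan-endothelial genes, such as Tie1, Erg, Robo4 and Egfl7, the 3 highest values were in mice 2, 7 and 9 for 14, and mouse 9 was highest for 18. Tie1, the partner receptor of Tek, had 835, 1128 and 760 normalized counts under the UC label (mice 1, 2 and 4) against 1332, 712 and 1755 under the control label (mice 7, 8 and 9). The inflammatory genes had mouse 1 rather than mouse 2 among their 3 highest, in 8 of 8. No comparison was made between sets of mice other than the labelled groups.

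**Figure D4:**
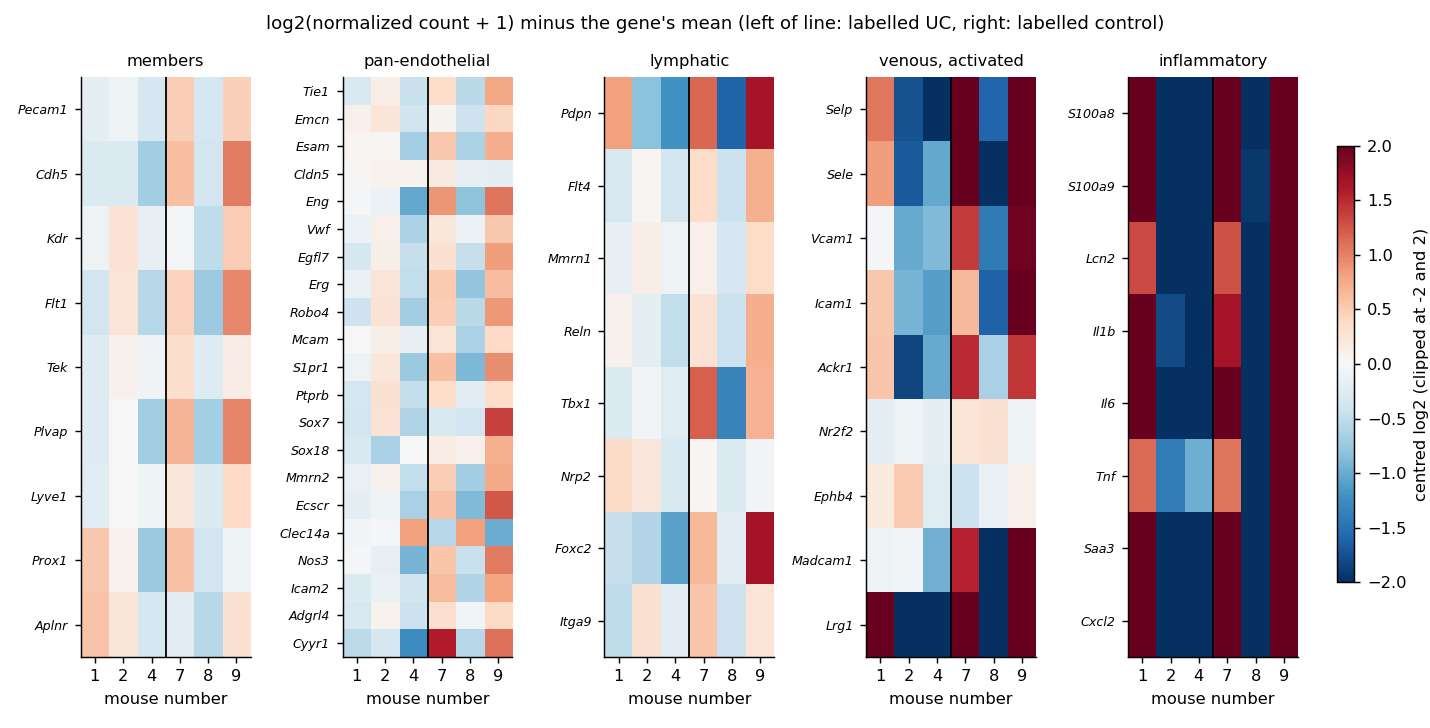
Gene-centred log2(normalized count + 1) by mouse, for the 9 endothelial genes, the pan-endothelial, lymphatic, and venous and activated lists, and 8 inflammatory genes; colour is clipped at -2 and 2, and the black line parts the libraries labelled UC (left) from those labelled control (right). Mice 7 and 9 are high in most endothelial rows, while mouse 1 is high in the inflammatory rows and in adhesion genes such as Selp but not in most of the pan-endothelial rows.

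To read each gene against other endothelial genes of its own library, the median log2(normalized count + 1) of the 21 pan-endothelial genes was subtracted. That median stood at 627, 696 and 454 normalized counts in mice 1, 2 and 4 and at 1057, 450 and 874 in mice 7, 8 and 9. Although mouse 9 was highest for 18 of the 21 genes, its median lay below that of mouse 7. The middle gene was Esam in mouse 7 (1057) and Clec14a in mouse 9 (874), and Clec14a had its 3 highest values in mice 2, 4 and 8. The median thus rests on different genes in different libraries and is not a measure of the amount of endothelial RNA. The subtraction narrowed the SD over 6 libraries from 0.39 to 0.18 for Pecam1, from 0.66 to 0.35 for Cdh5, from 0.66 to 0.32 for Flt1 and from 0.70 to 0.29 for Plvap, all on the log2 scale. The SD did not narrow for Kdr (0.36 and 0.37), Tek (0.24 and 0.32), Lyve1 (0.26 and 0.33) or Aplnr (0.44 and 0.51), and it was 0.52 and 0.37 for Prox1.

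After the subtraction of the median the labelled groups stopped overlapping for 2 of the 9 genes. The share of all genes without overlap after the same subtraction was not computed. It was 5.66% for normalized counts without the subtraction. Cdh5 lay 0.53, 0.38 and 0.59 above the list on the log2 scale in mice 1, 2 and 4 and 0.66, 0.92 and 1.35 above it in mice 7, 8 and 9. The difference, labelled UC minus labelled control, was -0.48 (exact two-sided permutation test, p 0.1, the smallest that 3 against 3 allows). Aplnr lay below the list, at -1.42, -1.89 and -1.88 in mice 1, 2 and 4 and at -2.96, -2.08 and -2.16 in mice 7, 8 and 9. Its difference was 0.67 (exact two-sided permutation test, p 0.1). The difference was -0.29 for Cdh5 without mouse 9 and 0.39 for Aplnr without mouse 7. The other 7 genes had overlapping groups and exact p-values from 0.2 (Plvap) to 0.8 (Pecam1 and Flt1), with differences between -0.29 and 0.37. With the mean of the list in place of its median, Kdr also had groups without overlap (difference 0.43 in place of 0.37, exact two-sided permutation test, p 0.1 in place of 0.3). No adjusted p from 9 such tests can pass 0.05 in this design.

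**Figure D5:**
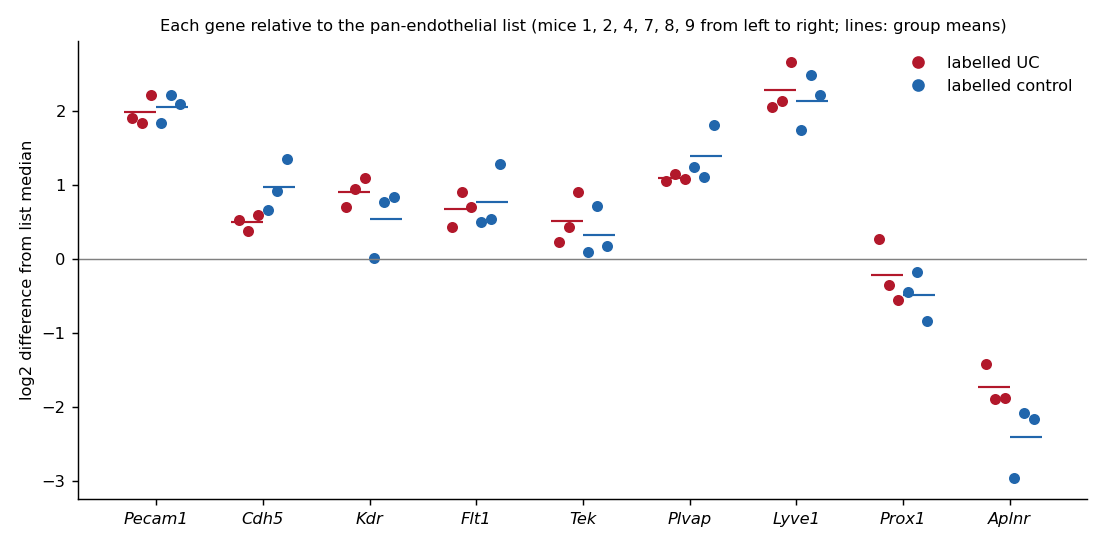
Log2 difference of each endothelial gene from the median of 21 pan-endothelial genes in the same library, mice 1, 2, 4, 7, 8 and 9 from left to right, with lines at the group means. With the median of the list, Cdh5 (all 3 labelled control libraries higher) and Aplnr (all 3 lower) have labelled groups that do not overlap.

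The other genes of the vasculature were examined as 7 lists of 79 genes, of which 78 were found by a single identifier and 76 were tested. Ccl21a matched 2 identifiers and was left out. None of the 76 was SDE, against 0.00450% of all genes (0 also with DESeq2 and with limma-voom). At an unadjusted p under 0.05 were 3 of the 76, against 1.41% of all genes, and all 3 were lower in the libraries labelled UC, as were 0.737% of all genes: Cyyr1 (log2FC -1.62, SE 0.57, edgeR unadjusted p 0.0276), Esm1 of endothelial tip cells (-1.83, SE 0.76, unadjusted p 0.0495) and Foxc2 of lymphatic valves (-1.64, SE 0.59, unadjusted p 0.0293). The adjusted p of each was 0.9999. Groups without overlap were found for 4 of the 76, a share near the 5.66% of all genes, with Sox18, Nr2f2 and Foxc2 lower in the libraries labelled UC and the fatty acid transporter Cd36 higher. Of all genes, 2.15% had groups without overlap with the libraries labelled UC lower.

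Of the 21 pan-endothelial genes, 19 had a log2FC below 0, with a median of -0.50 and a range from -1.62 (Cyyr1) to 0.31 (Clec14a). Of 8 tested lymphatic genes, 7 were below 0, with a median of -0.48, from -1.64 (Foxc2) to 0.21 (Nrp2). Flt4, the lymphatic receptor for VEGF-C, had 1181, 1512 and 1136 normalized counts in libraries 1, 2 and 4, labelled UC, and 1888, 1097 and 2406 in libraries 7, 8 and 9, labelled control. Mmrn1, also of lymphatic endothelium, stayed between 2890 and 4701, a 1.63-fold range much like that of Lyve1. Pdpn (podoplanin), which activated fibroblasts and macrophages also express, ranged 9.51-fold instead. It had 1589, 508 and 385 normalized counts in libraries 1, 2 and 4, labelled UC, and 1992, 296 and 2826 in libraries 7, 8 and 9, labelled control, so mouse 1 was among its 3 highest.

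The venous and activated list had the median log2FC farthest from 0 among the 7 lists. Of its 9 genes, 8 had a log2FC below 0 (median -1.77, from -2.80 for Sele to 0.33 for Ephb4), 0 were SDE, and 6 had their 3 highest values in mice 1, 7 and 9. Selp (P-selectin), which slows leukocytes on venules, had 1227, 95.8 and 1711 normalized counts in the libraries labelled control (mice 7, 8 and 9) and 603, 85.3 and 54.4 in the mice labelled UC (1, 2 and 4). Mouse 1 stood with mice 7 and 9 here, whereas for Cdh5 and Plvap it stood near mouse 2. Vcam1 had 1405, 709 and 772 normalized counts under the UC label (mice 1, 2 and 4) against 3768, 536 and 5544 under the control label (mice 7, 8 and 9) (log2FC -1.77, SE 0.77, edgeR adjusted p 0.9999). Madcam1, the gut addressin for lymphocytes, had 121, 125 and 66.0 normalized counts in libraries 1, 2 and 4, labelled UC, and 381, 13.9 and 860 in libraries 7, 8 and 9, labelled control. Sele (E-selectin) was near 0 in mice 2, 4 and 8, with at most 7.42 normalized counts, and reached 191 in mouse 9.

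The 9 arterial genes had a median log2FC of -0.50, from -1.04 (Gja5, a gap junction protein) to 0.18 (the Notch target Hey1), and 8 were below 0. The 10 capillary and tip cell genes had a median of -0.22, from -1.83 (Esm1) to 0.65 (Rgcc), with 6 below 0. Some list genes had high counts, against at most 4043 normalized counts for the 9 genes. Car4 had 24686 to 86056, Unc5b 4966 to 21221 and the arterial Efnb2 7647 to 13128. Lrg1 of the venous and activated list reached 26490. Car4 had its 3 highest values in mice 2, 4 and 8, as did 1 of the 7 colon epithelial genes, Slc26a3. The part of other cells in these counts was not tested. Apln, the ligand of Aplnr, had 118, 40.3 and 220 normalized counts in the libraries labelled control (mice 7, 8 and 9) and 117, 69.7 and 59.4 in the mice labelled UC (1, 2 and 4). Mice 1 and 9 were among the 3 highest for both ligand and receptor, while mouse 7 was among them for Apln only. The 7 tested pericyte genes had a median of -0.30, from -1.39 (Kcnj8, a potassium channel subunit) to 0.29 (Cox4i2), with 5 below 0.

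Among 12 tested ligands and modulators the median log2FC was -0.12, from -1.46 (Pgf) to 0.16 (Vegfb), with 10 below 0. Vegfa, the ligand of Kdr and Flt1 that epithelium also makes, had 3063, 2214 and 5139 normalized counts under the UC label (mice 1, 2 and 4) against 3185, 4882 and 2629 under the control label (mice 7, 8 and 9). Its highest libraries were mice 4 and 8, which were the lowest for Plvap and for Flt1. Pgf, a ligand of Flt1 alone among these receptors, was highest in mouse 9 (211 normalized counts) and lowest in mouse 2 (13.9). Angpt2, an antagonist of Tek, had 98.5, 229 and 174 normalized counts in libraries 1, 2 and 4, labelled UC, and 252, 217 and 540 in libraries 7, 8 and 9, labelled control. Mouse 1 was lowest and mouse 9 highest for Angpt2 (log2FC -1.01, SE 0.49, edgeR adjusted p 0.9999).

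Markers of other cells moved between the same libraries. The 7 monocyte and macrophage genes, each with its 3 highest values in mice 1, 7 and 9, summed to between 15370 and 37430 normalized counts in the libraries labelled UC and between 14581 and 54335 in those labelled control (median log2FC -0.80). The 6 neutrophil genes did so as well, with sums from 181 to 12638 and from 358 to 39523 and a median log2FC of -1.87. Cxcr2, one of them, was at 0 in mice 4 and 8. The 6 fibroblast genes summed to between 76915 and 121238 under the UC label and between 70618 and 209298 under the control label, highest in mice 9 and 7 as for Plvap (median -0.55). The 6 smooth muscle genes followed another order, with the lowest sums in mouse 9 (128101) and mouse 1 (228690) and 350885 to 534675 in the others (median 0.52). Mouse 7, high in the fibroblast sum, was not low in this one (362013). Their part in the endothelial values was not tested.

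The 7 colon epithelial genes summed to between 789984 and 1762512 (median log2FC -0.16), and the 6 genes of enteric neurons and glia to between 1234 and 3839 (median -0.11). Of the 6 platelet genes, 5 were tested (median 0.32), with sums from 772 to 2250 and Gp9 at 0 in mouse 8. The 5 red cell genes summed to between 496 and 4210 (median 0.38 over 4 tested), lowest in mouse 9, where most endothelial genes were highest. The 5 squamous epithelial genes found summed to between 91.6 and 734, with Krt5 at 0 in mice 1 and 2 (median -1.01 over 4 tested). The resident macrophage and enteroendocrine lists, whose sums stand beside Lyve1 and Prox1, had medians of -0.39 and 0.22.

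Blood RNA held little of these genes apart from Pecam1. In CPM, which scales the counts of each library to one common total, every colon library exceeded every blood library for 8 of the 9 genes. The small RNA 7SL took between 35.9% and 65.4% of the blood counts and between 4.90% and 6.50% of the colon counts, which lowers the blood CPM of every other gene. With 7SL left out of the totals, a choice made after the data were seen, the count was again 8 of 9. Cdh5 had at most 11 counts in a blood library, being at 0 in 3 of 6, and Prox1 had at most 3 counts, being at 0 in 5 of 6. Kdr reached 2.01 CPM in the blood against at least 8.20 CPM in the colon, or 3.23 against 8.67 CPM without 7SL. Pecam1 went the other way, with 40.9 to 86.8 CPM in the blood and 22.5 to 48.2 CPM in the colon, and without 7SL every blood library (at least 118 CPM) was above every colon library (23.8 to 50.9 CPM). The red cell gene Alas2 had at least 34034 CPM in the blood and at most 44.3 CPM in the colon, or 0.130% of it.

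For each gene the 3 genes of most similar profile over the 6 libraries were found, by the root mean square difference of gene-centred log2(normalized count + 1) among 15826 genes with a mean of at least 100. Flt1 was nearest to Calcrl (0.090), Robo4 (0.103) and Itgb3 (0.114). Plvap was nearest to Adgrf5 (0.060), Rgs14 (0.070) and AU020206 (0.094), and Cdh5 to Sh3bp1 (0.101), Sdk1 (0.121) and Bgn (0.133). Adgrf5, for example, had 3283, 1237 and 4107 normalized counts in the libraries labelled control (mice 7, 8 and 9) and 1913, 2040 and 1283 in the mice labelled UC (1, 2 and 4). Pecam1 was nearest to Pik3cg (0.050), Nid1 (0.072) and Fgd5 (0.073).

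The genes that varied less had other neighbours. Kdr was nearest to Leo1 (0.041), Cct3 (0.080) and Sms (0.080), Tek to Rexo2 (0.054), Lepr (0.058) and Psmg4 (0.070), and Lyve1 to Pros1 (0.058), Fam49b (0.071) and Srrt (0.075). Prox1 was nearest to Gnao1 (0.043), Gm43052 (0.099) and Hivep3 (0.118). Aplnr was nearest to Fitm2 (0.102), Fkbp14 (0.111) and Nectin2 (0.115). None of these neighbours but Robo4 stands in the vascular lists.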

How the data were processed

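Total RNA from colon and whole blood was sequenced after removal of ribosomal RNA, and of globin RNA in blood. Per the study's methods, the authors trimmed reads with Flexbar and discarded ribosomal ones, then used STAR for alignment to GRCm38 and StringTie 1.3.4c with Ensembl 92 for quantification. The deposited count table holds gene counts derived from transcript coverage. The deposited normalized colon counts were made by the authors as a signal, each count over the size factor of its library, and the constant ratio was checked. Default StringTie options set no strand.

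Groups followed the disease and tissue characteristics. The 9 genes and the lists (pan-endothelial, capillary and tip, arterial, venous and activated, lymphatic, ligands and modulators, pericyte, and other cell types) were chosen with earlier results of these data known. Named beside the 9 genes were the extremes of each list, genes with an unadjusted p under 0.05 or groups without overlap, and the 3 nearest profiles. Other genes of the lists were named after their values were seen.

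Counts of the 6 colon libraries were fitted in R 4.3.3 with edgeR 4.0.16 (TMM, filterByExpr, glmQLFit, glmQLFTest, Benjamini-Hochberg adjustment). SE was taken as log2FC over the root of F. Alternatives were RLE, library size only, 2 other filters, DESeq2 1.42.0, limma-voom (limma 3.58.1), the genes of the normalized table only, each mouse left out, and pseudocounts of 0.5 and 5 in place of 1. Exon lengths came from GENCODE vM21 (GRCm38). Steps were tested on simulated data. The counts simulated for the fit varied less than these libraries, whose biological coefficient of variation was 0.503. They therefore do not show which changes the fit could find here.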

Additional observations from a re-analysis of the deposited data

How the results depend on the processing

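None of the 9 endothelial genes and none of the 76 vascular list genes tested was SDE under any of the 13 alternatives to the fit, and the lowest adjusted p of the 9 was 0.540 (edgeR, without mouse 8). In that fit the unadjusted p was 0.00263 for Cdh5, 0.00541 for Plvap and 0.00676 for Pecam1, with log2FC values of -1.23, -1.13 and -0.70. Over all genes, SDE genes numbered 1, and 6 with DESeq2, 0 with limma-voom and 0 in every fit that left out a mouse. The fits without a mouse also had fewer libraries, and the cause of these differences was not tested. Of 117 alternative log2FC values for the 9 genes, 112 kept their sign and 5 turned. Kdr ran from -0.24 to 0.25 with each mouse left out (above 0 without mouse 1, 4 or 9) and Prox1 from -0.39 to 0.27 (above 0 without mouse 4 or 7). Genes below 0 numbered 8 of 9, and 7, 6, 7 and 7 without mouse 1, 4, 7 and 9. Over the same fits Cdh5 ran from -1.23 to -0.63, Plvap from -1.13 to -0.47 and Flt1 from -0.91 to -0.19, each nearest 0 without mouse 9. Of the vascular list genes 63 were below 0, and 54 without mouse 9.

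Relative to the pan-endothelial list, leaving out each mouse turned the sign of Pecam1 (from -0.18 to 0.02, without mouse 2 or 8), Flt1 (from -0.24 to 0.15, without mouse 1 or 9) and Lyve1 (from -0.07 to 0.31, without mouse 4 or 7). Cdh5 kept its sign (from -0.64 to -0.29), as did Aplnr (from 0.39 to 0.83) and the Flt1 to Kdr ratio (from -0.70 to -0.35). Kdr (from 0.11 to 0.52), Plvap (from -0.42 to -0.07) and Prox1 (from 0.04 to 0.44) kept theirs too. Tek ran from 0.0 to 0.38. With the mean of the list in place of its median, Cdh5 stood at -0.42, Aplnr at 0.73 and Kdr at 0.43, each with the smallest p that 3 against 3 allows (exact permutation test, p 0.1). No paired analysis was possible because the libraries labelled UC and control colon share no mouse number. With 3 libraries a group, the 95% intervals of the log2FC were between 0.98 and 2.15 wide.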

Other observations

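Clec14a, a lectin-domain receptor counted among the pan-endothelial genes, stood against most of the others. It had 1690, 1724 and 3073 normalized counts under the UC label (mice 1, 2 and 4) against 1171, 3092 and 874 under the control label (mice 7, 8 and 9), highest in mice 4 and 8, where Cdh5, Plvap and Tie1 were low. It was the only one of the 21 pan-endothelial genes with its 3 highest values in mice 2, 4 and 8. Cldn5 of the same list also had a log2FC above 0 (0.08, SE 0.25, edgeR adjusted p 0.9999). Its 3 highest values were in mice 2, 4 and 7 and its lowest in mouse 9 (286 normalized counts), within a range of 1.29-fold.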
